A study of Mus musculus with 9 samples.

Results

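Genes of insulin, growth hormone and IGF signalling, 10 in number, were followed in liver, brain and kidney of SJL/J and C57BL/6J mice. They are the ligand Igf1, the receptors Ghr, Insr and Igf1r, the receptor substrates Irs1 and Irs2, the carrier proteins Igfbp1, Igfbp2 and Igfals, and the feedback inhibitor Socs2. The members were found as probes with 1 gene symbol, and 10 of 10 genes were present, on 12 probes, among 15096 genes with 1 symbol. The genes were picked with strain ratios from these same arrays known, so their ratios are given as a description, without p-values.

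Growth hormone from the pituitary binds its receptor on hepatocytes and activates the kinase JAK2 and the transcription factor STAT5, which drives Igf1, Igfals and Socs2, and SOCS2 in turn restrains the receptor. Insulin and IGF-1 bind related tyrosine kinase receptors, whose substrates IRS1 and IRS2 recruit PI3K and lead to Akt. In fed liver Akt keeps the transcription factor FOXO1 out of the nucleus, and in fasting FOXO1 induces Irs2, Igfbp1 and the gluconeogenic genes G6pc and Pck1.

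On each array, RNA pooled from 5 male SJL/J mice, in the far-red channel, was compared with RNA pooled from 5 male C57BL/6J mice, in the orange channel, all aged 8 weeks. There were 3 arrays for liver, 3 for brain and 3 for kidney, technical replicates of the same 2 pools without exchange of the dyes. A dye or probe effect that is alike in the tissues thus cannot be told apart from a strain difference. This applies to every ratio below that has the same sign in all tissues. Such an effect cancels only in differences between tissues. SJL/J and C57BL/6J are inbred laboratory strains, no treatment is labelled, and the feeding state is not given in the sources used here. For the liver and kidney arrays the tissue named for channel 1 is brain, contrary to their titles, which were followed.

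All values below are log2 ratios of SJL/J over C57BL/6J, so a positive value means more signal from the SJL/J pool, and errors are SDs over 3 arrays. The log base and the direction are inferred, from the software named by the submitters and from the dyes and titles. Nnt, partly deleted in C57BL/6J, averaged 0.48 ± 0.26 in liver, 0.61 ± 0.42 in brain and 0.67 ± 0.46 in kidney. Each array held 23040 spots with 0 missing values, and ratios ran from -3.91 to 5.09 around a median of 0.01. Residual SDs were 0.232 to 0.314 on the brain arrays and 0.199 to 0.212 on the others. Ratios hold no level, so the labelled tissues could not be checked against marker genes, levels of different genes could not be compared, and fewer cells of a type cannot be told apart from less RNA per cell.

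Upstream sequence is shown first for the members on which insulin or growth hormone is known to act through a short DNA element. Motifs were searched on both strands in the 250 bases before each start in RefSeq (GRCm38.p6), where 8 of the 10 genes had an entry. The 3 motifs were TGTTTTG, the core of the insulin response element bound by FOXO factors, CACGTG, an E-box, and TTCNNNGAA, the STAT5 consensus. Of 32851 promoters, 5.56% held the first, 6.02% the second, 7.02% the third and 0.295% both the first and the second. The 120 bases before the start of Irs2, the member with the highest liver ratio, of its relative Irs1 and of Igfbp1 follow, 5′ to 3′, with the insulin response element core and the E-box in capitals.
Irs2 (chr8:11008930-11009049, minus strand): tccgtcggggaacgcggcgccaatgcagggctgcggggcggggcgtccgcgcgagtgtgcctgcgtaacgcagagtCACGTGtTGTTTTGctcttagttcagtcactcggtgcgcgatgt
Irs1 (chr1:82291440-82291559, minus strand): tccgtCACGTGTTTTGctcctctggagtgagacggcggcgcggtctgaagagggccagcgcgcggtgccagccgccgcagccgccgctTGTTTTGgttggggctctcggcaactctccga
Igfbp1 (chr11:7197667-7197786, plus strand): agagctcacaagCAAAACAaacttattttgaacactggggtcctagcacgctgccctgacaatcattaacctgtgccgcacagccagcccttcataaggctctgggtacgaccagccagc
In Irs2 the E-box began at -44 and the insulin response element core at -37, counted from the start. In Irs1 the E-box at -115 overlapped a core at -111, and a further core began at -32. The core of Igfbp1, at -108, was on the opposite strand. The STAT5 consensus, in capitals, was found upstream of 2 of the 3 listed starts of Igfals.
Igfals, first start (chr17:24877598-24877626, plus strand): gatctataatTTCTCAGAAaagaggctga
Igfals, second start (chr17:24878163-24878191, plus strand): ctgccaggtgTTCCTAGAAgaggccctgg
The promoter windows of Igf1, Igf1r and Ghr held none of the 3 motifs, and of the 2 listed starts of Igfbp2 1 had an E-box, at -142. Insr and Socs2 had no entry.

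Irs2 stood apart from the other members. It encodes the insulin receptor substrate that is induced in fasted liver, and its ratios on the liver arrays were 2.44, 2.53 and 2.64, a mean of 2.54 ± 0.10 and a level 5.8-fold higher in SJL/J. Its liver mean ranked 31 from the highest among the 15096 genes. On the brain arrays Irs2 had 0.52, 0.99 and 0.64 (0.72 ± 0.24), and on the kidney arrays 0.38, 0.33 and 1.24 (0.65 ± 0.51). It lay above 0 on 9 of 9 arrays, as did 8.19% of all features, and the liver arrays did not overlap those of brain or kidney. The mean for liver exceeded that for brain by 1.82 and that for kidney by 1.89. Kidney array 3 decided much of the kidney value, which was 0.36 without it. The Irs2 probe sat in a line of the array whose median ratio was 0.59 in liver, and with line and position medians removed its ratios were 1.99 in liver, 0.70 in brain and 0.55 in kidney.

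Irs1, the substrate that is used widely outside liver, stayed near 0 in every tissue. Its ratios were -0.13, 0.02 and 0.01 in liver, -0.01, -0.04 and 0.03 in brain, and -0.05, -0.14 and -0.07 in kidney. The 9 arrays lay between -0.14 and 0.03. The windows upstream of both substrates, shown above, hold an E-box and an insulin response element core, and the part of these motifs was not tested.

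**Figure D1:**
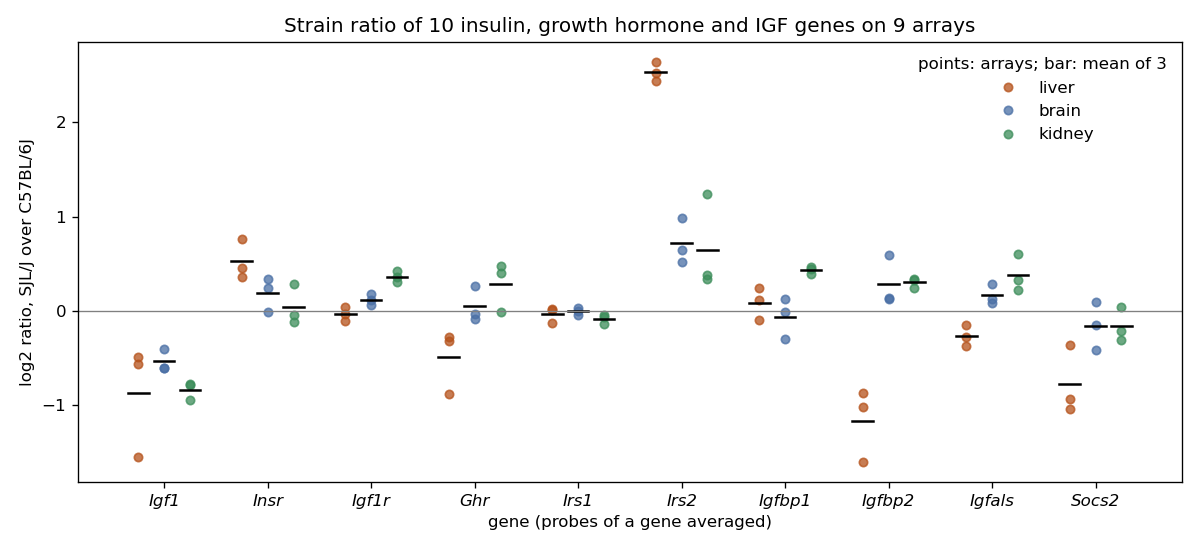
Log2 ratio of SJL/J over C57BL/6J for each of the 10 genes on each of the 9 arrays, with points for single arrays and a bar for the mean of each tissue. Irs2 in liver lies at 2.44 to 2.64, above every other point, and Igf1 lies below 0 on all arrays.

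Igf1, the hormone that liver releases in response to growth hormone, had lower signal from the SJL/J pool in all 3 tissues. A dye or probe effect shared by the tissues cannot be told apart from this. Its ratios were -0.57, -1.56 and -0.49 in liver, -0.40, -0.60 and -0.61 in brain, and -0.78, -0.79 and -0.94 in kidney. All 9 arrays lay below 0, as they did for 7.34% of all features. The liver arrays overlapped those of brain and kidney, and the kidney arrays lay below the brain arrays. The means were -0.87 ± 0.60 in liver, -0.54 ± 0.12 in brain and -0.84 ± 0.09 in kidney, levels 1.83-fold, 1.45-fold and 1.79-fold lower in SJL/J. Liver array 2 was the lowest of the 9, and without it the liver mean was -0.53. The lines of the array that held the Igf1 probe were themselves low, with medians of -0.30 in liver, -0.35 in brain and -0.42 in kidney. With line and position medians removed, the ratios of Igf1 were -0.56 in liver, -0.16 in brain and -0.39 in kidney.

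Ghr, the growth hormone receptor, was lower in the SJL/J pool in liver, with -0.89, -0.32 and -0.27 (mean -0.49 ± 0.34). Brain gave -0.08, -0.04 and 0.27, and kidney 0.48, -0.01 and 0.40. The 3 liver arrays lay below all brain and kidney arrays, although the liver mean was -0.30 without liver array 1. Its only probe had a number that is a multiple of 8, a class of spots with low ratios on these arrays. With line and position medians removed, Ghr had -0.34 in liver, 0.21 in brain and 0.46 in kidney.

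Insr, the insulin receptor, was higher in the SJL/J pool in liver, with 0.35, 0.45 and 0.77 (0.52 ± 0.21, 1.44-fold). In brain it had 0.24, 0.34 and -0.02, and in kidney -0.05, -0.12 and 0.28. The liver arrays lay above all brain and kidney arrays, and the brain and kidney arrays lay on both sides of 0.

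Igf1r, the receptor for IGF-1, differed from Insr in its tissue pattern. The mean of its 3 probes was -0.11, -0.03 and 0.04 on the liver arrays, 0.06, 0.11 and 0.18 on the brain arrays, and 0.42, 0.30 and 0.35 on the kidney arrays. Kidney lay above the other tissues without overlap. The probes did not give the same kidney value, however, with means of 0.23 ± 0.18, 0.76 ± 0.08 and 0.08 ± 0.07, and with line and position medians removed the kidney mean was 0.17.

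Igfbp2, an IGF carrier protein made by liver, had the lowest liver ratio of the members. The liver arrays gave -0.88, -1.61 and -1.03 (-1.17 ± 0.39), a level 2.25-fold lower in SJL/J. Brain gave 0.13, 0.59 and 0.12 (0.28 ± 0.27), which became 0.13 without brain array 2, and kidney 0.33, 0.34 and 0.24 (0.30 ± 0.05). The sign was thus negative on every liver array and positive on every brain and kidney array. Features whose 3 liver and 3 kidney arrays had opposite signs made up 13.6% of the whole, and those with opposite signs in liver and brain 7.08%. With line and position medians removed, Igfbp2 had -1.24 in liver.

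Igfals, the acid-labile subunit that holds IGF-1 in a large circulating complex and is a target of growth hormone in liver, had the same pattern of signs at smaller size. Its ratios were -0.15, -0.37 and -0.28 in liver, 0.13, 0.29 and 0.08 in brain, and 0.32, 0.60 and 0.22 in kidney. The liver mean was lower than the brain mean by 0.43 and lower than the kidney mean by 0.65, as differences of -0.43 and -0.65. With line and position medians removed its means were -0.14 in liver, 0.12 in brain and 0.11 in kidney.

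Igfbp1, a carrier induced by FOXO1 and repressed by insulin in liver, did not follow Irs2 there. Its ratios were -0.10, 0.11 and 0.24 in liver and -0.02, 0.12 and -0.30 in brain, both spread around 0, against 0.44, 0.47 and 0.39 in kidney. The kidney arrays lay above all others and had a mean of 0.43 ± 0.04, or 0.24 with line and position medians removed.

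Socs2, the inhibitor that growth hormone induces through STAT5, was lower in the SJL/J pool in liver, with -0.36, -0.93 and -1.05 (-0.78 ± 0.37, 1.72-fold lower). Brain gave -0.42, -0.15 and 0.09, and kidney 0.04, -0.31 and -0.21. One brain array lay within the liver range, so liver and brain overlapped. The only Socs2 probe was, like that of Ghr, at a multiple of 8, and its ratios with line and position medians removed were -0.51 in liver, 0.16 in brain and -0.02 in kidney.

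**Figure D2:**
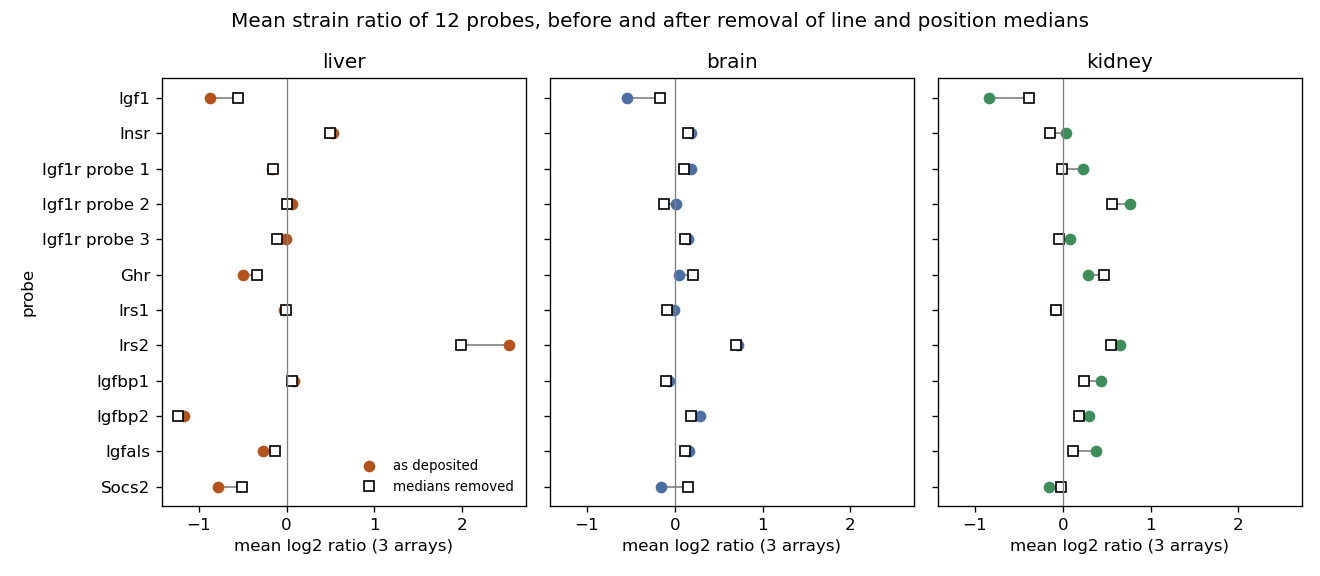
Tissue mean of each probe's log2 ratio as deposited and after the medians of array lines and positions were removed, with 1 panel per tissue. The 12 probes are shown singly, 3 of them for Igf1r. With the medians removed the liver means of Irs2, Igfbp2 and Igf1 are 1.99, -1.24 and -0.56, and the brain and kidney means of Igf1 are -0.16 and -0.39.

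In order of liver mean the genes ran Irs2, Insr, Igfbp1, Irs1, Igf1r, Igfals, Ghr, Socs2, Igf1 and Igfbp2. Neighbours in this order were separated on all arrays at 3 places, between Irs2 and Insr, between Insr and Igfbp1, and between Igf1r and Igfals. In brain all neighbours overlapped, and in kidney only Socs2 and Igf1, the lowest member, did not. The median of the members was -0.15 in liver, 0.08 in brain and 0.30 in kidney, against 0.02, 0.01 and 0.03 for all 21262 features.

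For reference to the whole table, 6 of the 10 members passed the limma test in liver, 2 higher and 4 lower, where 25.4% of all features did, 13.2% higher and 12.2% lower. In brain Irs2 passed alone, where 20.7% of features did, 10.7% higher and 9.96% lower. In kidney 5 members passed, 4 higher and 1 lower, where 29.6% did, 15.1% higher and 14.6% lower. The kidney count was 2 without kidney array 1, 3 without kidney array 2 and 2 with line and position medians removed. The liver count was 4 with those medians removed. It was also 4 without multiples of 8, where Ghr and Socs2 had no probe left and could not be counted. The brain count was 0 without brain array 2. Since the members were chosen from these ratios, nothing is read from these counts. The 3 genes closest to Irs2 over the 9 arrays by Euclidean distance were Ncbp2 at 1.27, Cxcl1 at 1.30 and Stx6 at 1.35. Their liver means were 2.60, 2.38 and 2.66, and their brain and kidney means lay between 0.19 and 0.39, below those of Irs2.

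**Figure D3:**
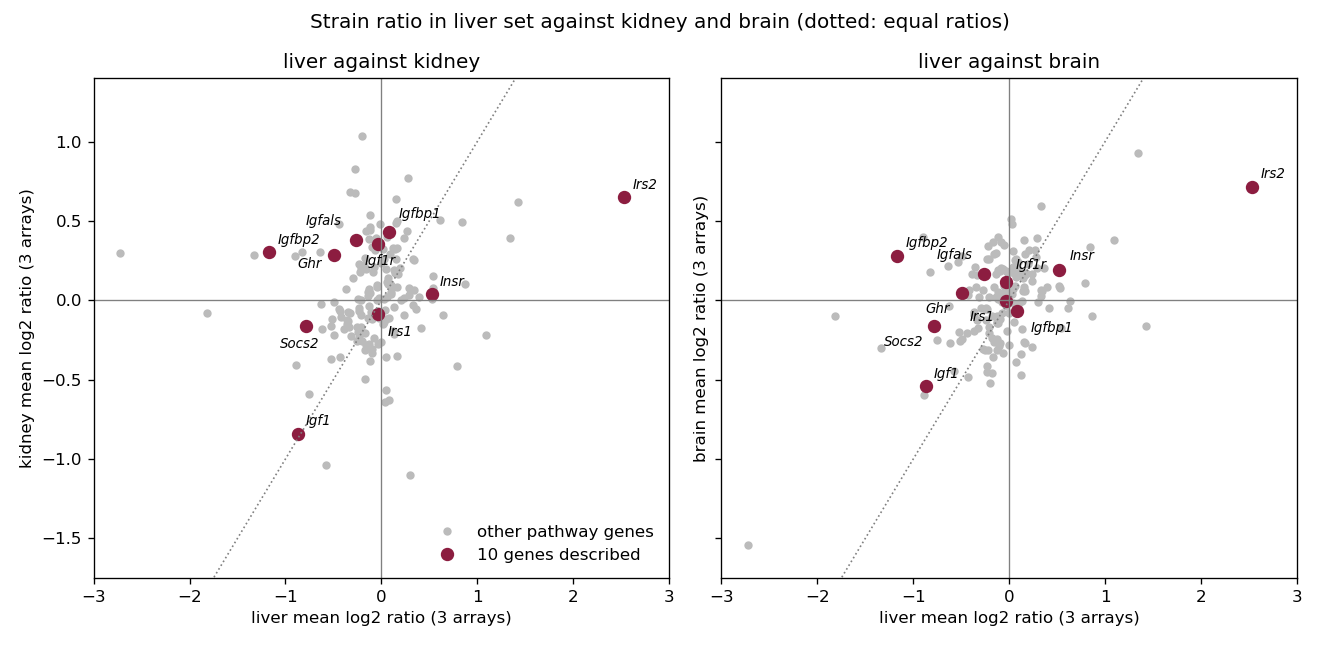
Liver mean log2 ratio of each of the 10 genes and of the other 158 pathway genes (horizontal axis) against the brain mean and the kidney mean (vertical axes). Irs2 at 2.54 and G6pc at -2.73 lie at the ends of the liver axis.

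Around the members, 183 other genes of the pathway had been written in 8 lists, of which 158 were measured. The lists too were chosen with earlier results of these data known, so their shares and p-values are no independent test. In liver 17 of the 158 were higher, 26 lower and 115 did not pass (limma, Benjamini-Hochberg adjusted over all features), so that 27.2% passed beside 25.4% of all features. In brain 8 were higher and 8 lower, or 10.1% beside 20.7%, and in kidney 22 were higher and 13 lower, or 22.2% beside 29.6%. The share in liver was thus near that of the whole table, and the shares in brain and kidney were below it. With line and position medians removed, the liver split was 16 higher and 14 lower, beside 19.2% of all features. Without liver array 1, 2 or 3, the liver count was 20, 21 or 26, and the share of all features 14.8%, 16.4% or 14.7%. The brain count was 8, 9 or 30 without brain array 1, 2 or 3, beside 13.6%, 10.5% or 22.1% of all features. The kidney count was 16, 20 or 13 without kidney array 1, 2 or 3, beside 17.3%, 17.3% or 17.7%. Fitted on the brain arrays alone, 2 pathway genes passed in brain, G6pc and Insig1, beside 6.95% of all features.

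**Figure D4:**
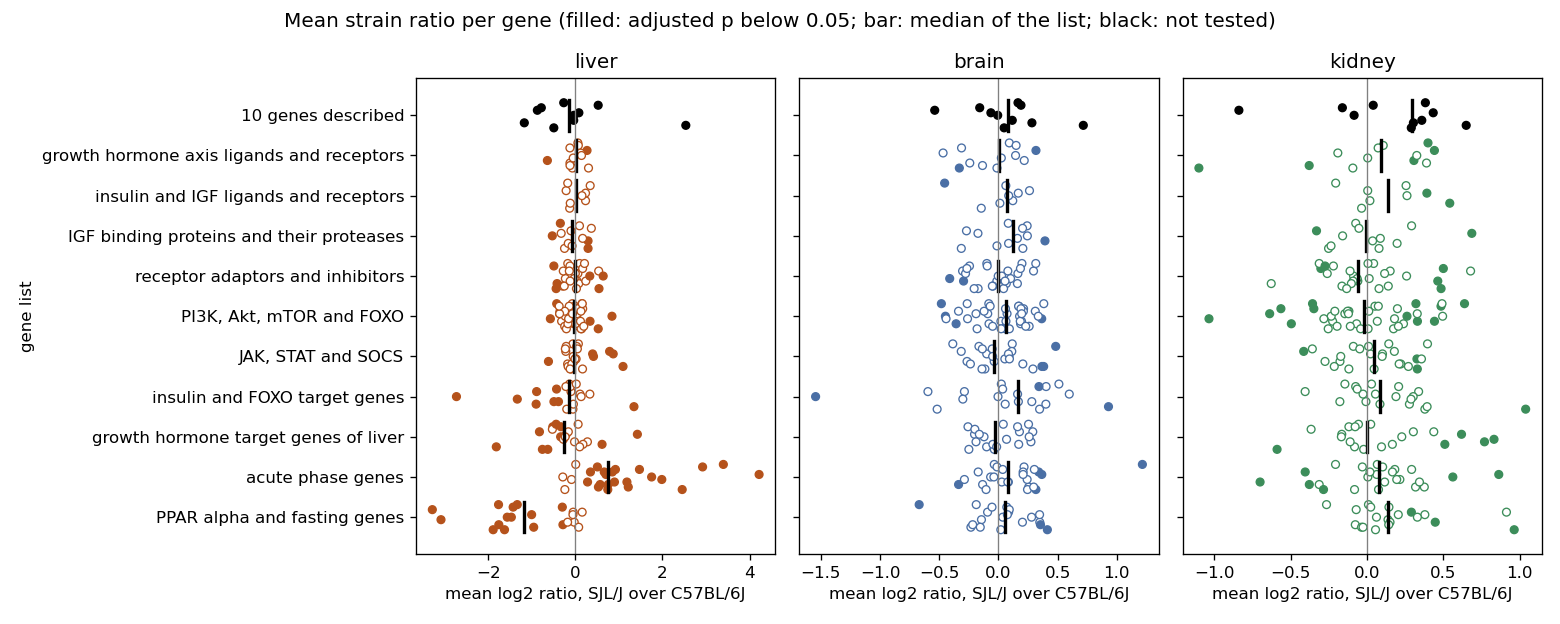
Strain differences by gene list in liver, brain and kidney, among them the 8 pathway lists and the 10 genes described. List genes were called at a limma adjusted p under 0.05, and the 10 genes are shown as a description only. The targets of growth hormone had 8 lower and 2 higher in liver, and those of insulin and FOXO 7 lower and 1 higher. These were the largest counts of lower genes in liver among the 8 pathway lists.

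Targets of insulin and FOXO in liver were mostly lower where they passed. Of 19 measured, 7 fell, 1 rose and 11 did not pass in liver, with a median of -0.13, beside a background of 12.2% lower and 13.2% higher. G6pc, the catalytic subunit of glucose-6-phosphatase, had -2.73, -2.86 and -2.59 in liver and -1.88, -1.72 and -1.03 in brain, against 0.08, 0.49 and 0.34 in kidney. It fell in liver (-2.73 ± 0.13, limma adjusted p = 1.94e-06) and in brain (-1.54 ± 0.45, limma adjusted p = 0.00013), and did not pass in kidney (0.30 ± 0.20). Mttp, the microsomal transfer protein for lipoprotein assembly, fell by 1.33 in liver (SD 0.46, limma adjusted p = 0.000943). Fasn, fatty acid synthase, which insulin raises, fell by 0.90 (SD 0.29, limma adjusted p = 0.000868), and Pdk4, a kinase of fasting that FOXO1 induces, by 0.89 (SD 0.19, limma adjusted p = 0.0209). The genes that fell thus include ones that insulin is known to repress (G6pc, Mttp, Pdk4) and one that it is known to induce (Fasn). Insig1, the sterol-regulated retention protein that insulin raises, rose in liver (1.35 ± 0.33, limma adjusted p = 0.000296) and brain (0.93 ± 0.28, limma adjusted p = 0.00334).

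The split of the list was 4 lower and 2 higher in liver with line and position medians removed, where Pdk4 had -0.57 and did not pass. Pdk4 also did not pass without liver array 1, 2 or 3 (-0.94, -0.78 and -0.95). In brain 1 of the 19 fell and 2 rose, and in kidney 1 rose and 0 fell, with 2 at an unadjusted p under 0.05. The kidney gene was Pck1, the cytosolic enzyme of gluconeogenesis, which had -0.58, 0.17 and -0.18 in liver, against 1.64, 0.99 and 0.49 in kidney (1.04 ± 0.58, limma adjusted p = 0.0118). It did not pass without kidney array 1 (0.74) or without kidney array 2 (1.06).

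Growth hormone targets of liver had the highest share called in liver among the 8 pathway lists, 50% beside 25.4% of all features. Of 20 measured, 8 fell, 2 rose and 10 did not pass, with a median of -0.25, and 5 fell and 2 rose with line and position medians removed. The list does not separate targets that growth hormone raises from those it lowers. Its split therefore gives no direction of growth hormone action. Cyp3a16, a cytochrome P450 with near-identical relatives that its probe may also read, had -2.09, -1.68 and -1.67 in liver (-1.81 ± 0.24, limma adjusted p = 4.9e-06) and was near 0 in brain (-0.10 ± 0.24) and kidney (-0.08 ± 0.02). Cebpa, a transcription factor of hepatocytes, fell by 0.82 (SD 0.35, limma adjusted p = 0.000933). Acsm3, an acyl-CoA synthetase, fell in liver (-0.76 ± 0.07, limma adjusted p = 0.000876) and in kidney (-0.59 ± 0.18, limma adjusted p = 0.00317).

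The 2 that rose in liver encode major urinary proteins, which growth hormone pulses induce in male liver. Mup3 rose by 1.42 ± 0.26 (limma adjusted p = 0.000153) and Mup5 by 0.61 ± 0.18 (limma adjusted p = 0.0124, not passing without liver array 3). The Mup genes are near-identical copies, so which of them a probe measured is uncertain. In brain 0 of the 20 passed by limma and 2 had an unadjusted p under 0.05. In kidney 4 rose and 1 fell. Mup3 (0.62 ± 0.40, limma adjusted p = 0.013) and Mup5 (0.51 ± 0.40, limma adjusted p = 0.0251) rose there too. Neither passed without kidney array 3, Mup3 did not pass without kidney array 2, and Mup5 did not pass on the kidney arrays alone. Cebpb, a factor of stress and hormone responses, was also among those that rose (0.77 ± 0.35, limma adjusted p = 0.00389).

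Of 23 JAK, STAT and SOCS genes, 5 rose and 1 fell in liver, so that 26.1% passed, close to the 25.4% of all features. Stat4, a STAT of interleukin signalling, had 1.11, 1.22 and 0.96 in liver (1.09 ± 0.13, limma adjusted p = 4.29e-05), against -0.15, -0.17 and -0.32 in kidney. Pias1, an inhibitor of STAT factors, rose by 0.87 ± 0.16 (limma adjusted p = 0.00037). Socs3, the inhibitor that cytokines such as interleukin-6 induce, rose by 0.79 ± 0.10 (limma adjusted p = 0.000174), so that it and Socs2 lay on opposite sides of 0 in liver. In kidney Socs3 had -0.42 ± 0.11 (limma adjusted p = 0.00565), which became 0.0032 with line and position medians removed. Both Stat4 and Socs3 are measured by probes at multiples of 8. In brain 3 rose, among them Stat2 (0.48 ± 0.06, limma adjusted p = 0.00623), and 0 fell, with 5 at an unadjusted p under 0.05 in either direction.

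The growth hormone axis above the liver gave 1 higher and 1 lower gene of 12 in liver, 1 and 1 in brain, and 3 and 2 in kidney. Whether a tissue expresses these genes cannot be seen from ratios, and dim spots were not filtered, so these calls may come from spots near background. Ghrh, growth hormone releasing hormone, was higher in every tissue at small size, 0.27 ± 0.04 in liver (limma adjusted p = 0.0299), 0.32 ± 0.10 in brain (limma adjusted p = 0.018) and 0.44 ± 0.05 in kidney (limma adjusted p = 0.00253). The only Ghrh probe was at a multiple of 8, and with line and position medians removed the brain ratio of Ghrh was 0.51. The brain call of Ghrh did not pass on the brain arrays alone or without brain array 1. Its receptor Ghrhr fell in liver (-0.64 ± 0.23, limma adjusted p = 0.00148), or -0.43 with line and position medians removed, and rose in kidney (0.31 ± 0.05, limma adjusted p = 0.0443). Sstr5, a somatostatin receptor, had -1.10 ± 0.23 in kidney (limma adjusted p = 0.00142), and with line and position medians removed -0.49, which did not pass.

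Insulin and IGF ligands and receptors gave 0 calls of 8 in liver by limma, with 3 at an unadjusted p under 0.05, 1 lower in brain and 2 higher in kidney. Ins2, an insulin gene, was the one in brain (-0.45 ± 0.19, limma adjusted p = 0.0205). It did not pass on the brain arrays alone, without brain array 1 or without brain array 2 (-0.36). Whether brain expresses Ins2 cannot be seen from ratios. The list of IGF binding proteins and their proteases, 12 measured genes, also holds stanniocalcins, which inhibit such a protease, and Igf2bp1 and Igf2bp3, which bind mRNA and are no IGF carriers. In liver 2 of the 12 rose, Stc2 and Igf2bp3, and 2 fell, Igfbp3 and Igfbp7. In brain 1 rose, Igf2bp3, and 0 fell, with 4 at an unadjusted p under 0.05 by limma. In kidney 1 rose, Igfbp4, and 1 fell, Igf2bp1. All but Igfbp4 and, in brain, Igf2bp3 are named after their values were seen, because the counts are small. Igfbp4, a carrier that holds IGF-1 back, had -0.28, -0.15 and -0.54 in liver, against 0.70, 0.38 and 0.99 in kidney (0.69 ± 0.31, limma adjusted p = 0.00425). Igfbp3, the main serum carrier and partner of Igfals, fell in liver (-0.34 ± 0.10, limma adjusted p = 0.021).

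Below the receptors, 3 of 26 adaptors and inhibitors rose and 3 fell in liver, 0 rose and 2 fell in brain, and 3 rose and 2 fell in kidney. Of 38 genes of PI3K, Akt, mTOR and FOXO, 3 rose and 4 fell in liver, 1 rose and 3 fell in brain, and 6 rose and 6 fell in kidney. Pik3r1, the regulatory PI3K subunit that binds IRS proteins, had -0.90, -1.14 and -1.07 in kidney (-1.04 ± 0.12, limma adjusted p = 0.000957), again at a multiple of 8. Pik3r1 also fell in liver (-0.57 ± 0.24, limma adjusted p = 0.0222), and had -0.44 ± 0.46 in brain, which did not pass. Its ratio did not differ between liver and kidney by the test (limma adjusted p = 0.161). Mtor, the growth kinase, rose in kidney (0.64 ± 0.25, limma adjusted p = 0.00387, and 1.06 at 1 of its 2 probes). Rictor, a partner of mTOR, had -0.50 ± 0.13 in kidney (limma adjusted p = 0.00239), and 0.043 without its probe at a multiple of 8. Prkcz, an atypical protein kinase C that acts below PI3K, fell in all 3 tissues, by 0.43 in liver, 0.48 in brain and 0.36 in kidney (limma adjusted p = 0.0215, 0.0155 and 0.0401). The brain call of Prkcz did not pass with line and position medians removed (-0.38), on the brain arrays alone, or without brain array 1 or 2.

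Other gene groups moved in liver with these lists. Of all features 13.2% were higher and 12.2% lower in liver, 10.7% and 9.96% in brain, and 15.1% and 14.6% in kidney. Of 25 acute phase genes, 21 rose and 0 fell, their median being 0.76 and their ratios running from -0.29 to 4.22, against 4 higher and 1 lower in brain and 2 higher and 4 lower in kidney. Of 20 genes of PPAR alpha and fasting, 14 fell and 0 rose in liver, their median being -1.17 and their ratios running from -3.28 to 0.16. Of 16 hepatocyte markers 7 rose and 3 fell, with a median of 0.39, and of 12 markers of macrophages and Kupffer cells 2 rose and 0 fell, with a median of 0.15. With line and position medians removed, 20 acute phase genes rose and 1 fell in liver. In that setting 1 gene of PPAR alpha and fasting rose and 11 fell, 8 hepatocyte markers rose and 2 fell, and 3 macrophage markers rose and 0 fell. Summed levels could not be given, because the table holds ratios only. The part of these groups in the ratios of the 10 genes and of the pathway lists was not tested.

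Differences between tissues were tested for the 158 pathway genes. Between liver and kidney 22 passed, 8 with a higher ratio in liver and 14 with a lower one, or 13.9% beside 19.2% of all features. Between liver and brain 6 and 10 passed, 10.1% beside 9.37%, and between brain and kidney 3 and 6, 5.7% beside 5.33%. G6pc differed by -3.03 between liver and kidney (SE 0.21, limma adjusted p = 2.88e-05), by -1.18 between liver and brain (limma adjusted p = 0.00871) and by -1.85 between brain and kidney (limma adjusted p = 0.00441). Cyp3a16 differed by -1.73 between liver and kidney (limma adjusted p = 0.000193) and by -1.71 between liver and brain (limma adjusted p = 0.000194). A test on the 3 tissue means found 0 pathway genes by limma, beside 3.92% of all features, with 15 at an unadjusted p under 0.05.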

How the data were processed

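The authors deposited 1 log2 ratio per spot for 9 arrays. R 2.0.0 and limma were used, per the submitters' processing notes. The sources used here do not name a background correction or array normalization. The sorted values of all arrays were identical, so distributions had been equalised before deposit. The log2 base and the direction are inferred. Spot intensities were not used here, so dim spots were not filtered, and the number of arrays limits the precision.

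Of 23040 probes, 16874 had 1 gene symbol in the platform annotation, 134 several and 6032 none. Probes of a gene were averaged, and every other probe stood alone (21262 features). A model with 1 coefficient per tissue was fitted with limma 3.58.1 in R 4.3.3 (lmFit, eBayes, two-sided), with 6 residual and 4.06 prior degrees of freedom, Benjamini-Hochberg adjustment over all features and a threshold of 0.05. Contrasts tested tissue differences. P-values for single tissues and for tissue differences cover technical spread alone, since all arrays of a tissue carry the same pools. The test on the 3 tissue means uses 1 value per tissue, so its p-values cover the spread between tissues. The procedure was tested on simulated data. Promoters were searched with Python 3.11.15.

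The members and lists were chosen with earlier results of these data known. Named pathway genes were those called, at most the 8 highest and 8 lowest per tissue and the 5 largest differences per pair of tissues, with up to 4 genes of each companion list. To describe a regional pattern, medians of lines of 24 consecutive probe numbers and of positions in a line were removed. Further alternatives left out multiples of 8 (2880 probes), each array in turn or probes without 1 symbol, and changed probe averaging, array weights, centring, the prior, the arrays fitted and the replicate block. Correlations of same-numbered arrays' deviations ran from -0.086 to 0.0555, so the numbers did not pair arrays.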

Additional observations from a re-analysis of the deposited data

Results flagged for a closer look

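Strain ratios that differed between tissues by the test of the difference itself are given here, in log2 units with limma adjusted p-values over all features. By limma, between liver and kidney, G6pc differed by -3.03 (limma adjusted p = 2.88e-05), Cyp3a16 by -1.73 (limma adjusted p = 0.000193), Mttp by -1.62 (limma adjusted p = 0.00405), Sstr5 by 1.405 (limma adjusted p = 0.0049) and Stat4 by 1.31 (limma adjusted p = 0.000321). Between liver and brain, Cyp3a16 differed by -1.71 (limma adjusted p = 0.000194), Mup3 by 1.585 (limma adjusted p = 0.00202), Fasn by -1.30 (limma adjusted p = 0.0025), G6pc by -1.18 (limma adjusted p = 0.00871) and Mttp by -1.03 (limma adjusted p = 0.0429). Between brain and kidney, G6pc differed by -1.85 (limma adjusted p = 0.00441), Pck1 by -1.56 (limma adjusted p = 0.0373), Sstr5 by 1.09 (limma adjusted p = 0.0375), Mtor by -0.90 (limma adjusted p = 0.0235) and Igfbp4 by -0.86 (limma adjusted p = 0.0341). Of the differences between brain and kidney, G6pc alone passed with the replicate block or on the arrays of those tissues alone, and that of Mttp between liver and brain did not pass without liver array 1 or 2 or brain array 1 or 3.

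For 2 of the 10 genes every liver array lay on the other side of 0 from every array of both other tissues. Over all features, liver and kidney arrays lay fully on opposite sides for 13.6%, and liver and brain arrays for 7.08%. The share for both tissues at once was not counted, so nothing is read from this number. Igfals differed by -0.65 between liver and kidney and by -0.43 between liver and brain, and Igfbp2 by -1.47 and -1.45. These differences were not tested, because the genes were chosen on the same ratios.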

How the results depend on the processing

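The ratios of the 10 genes kept their sign in every alternative wherever they were called, with 548 alternative values moving by less than 1 SD and 16 by more. Many settings, such as the prior, the replicate block or leaving out an array of another tissue, cannot change a tissue mean. Leaving out 1 of 3 arrays cannot move it by 1 SD. The number 548 is therefore no measure of stability. Of the values for named pathway genes, 1028 kept their side of the threshold, 155 lost it and 2 reversed, which were Rictor in kidney at 0.043 without multiples of 8 and Socs3 in kidney at 0.0032 with line and position medians removed. With those medians removed, 23 of the 158 pathway genes were called in kidney, beside 21.7% of all features, and 5 between brain and kidney, beside 3.44%. The splits were 16 higher and 14 lower in liver, beside 19.2%, and 10 and 10 between liver and kidney, beside 14.3%. With each tissue's own arrays, 2 were called in brain, beside 6.95% of all features, and 36 between liver and kidney, beside 25.1%. Between liver and brain 10 were called, beside 5.28%, and between brain and kidney 1, beside 1.13%. Array weights gave 54 in kidney, 26 between brain and kidney and 2 for the 3 tissue means. The shares of all features beside them were 40.7%, 15.3% and 6.24%. Leaving out 1 array gave 20 to 46 in liver, 8 to 30 in brain and 13 to 44 in kidney. At these ends the share of all features was 14.8% and 30.3%, 13.6% and 22.1%, and 17.7% and 34.9%. The counts were 13 to 33 between liver and kidney, 10 to 16 between liver and brain and 1 to 25 between brain and kidney. The shares there were 11% and 25%, 4.92% and 10.1%, and 0.757% and 13.8%. For the 3 means the count was 0 to 1. The lowest liver counts were 20, 21 and 26, without liver arrays 1, 2 and 3. The replicate block gave 37 in liver, 13 in brain and 29 in kidney, beside 23.3%, 18% and 26.6% of all features. It gave 19 between liver and kidney, 12 between liver and brain and 1 between brain and kidney. The shares there were 15.6%, 7.66% and 2.52%. Same-numbered replicates share only a name. The block and own-array fits were not run for the 3 tissue means. Most brain calls did not pass on the brain arrays alone. No dim-spot filter was possible.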
